A study of Mus musculus with 6 samples.

Results

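The 9 genes of red blood cell formation were followed in cells sorted from the fetal mouse liver: the alpha-like globins Hba-a1, Hba-a2 and Hba-x, the beta-like globins Hbb-bs, Hbb-bt, Hbb-bh1 and Hbb-y, the haem synthesis enzyme gene Alas2 and the membrane anion exchanger gene Slc4a1. They were chosen by name, and all 9 were found among the 52550 genes listed in the expression table. Embryos of SOX9-GFP mice on the CD-1 background supplied the cells, and green fluorescent protein (GFP) in these mice marks cells with the biliary transcription factor SOX9. Libraries were 3 at stage E16.5 and 3 at stage E18.5 (embryonic days, which the labels give as 16 and 18), called A, B and C at each stage, and each was made from total RNA of 1 pool of livers. After enzymatic dissociation, haematopoietic cells were removed magnetically with antibodies that included the erythroid marker Ter119, and GFP-positive cells were then sorted by flow cytometry. No genotype, treatment or age other than the stage separated the groups, and all embryos carried the reporter.

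Haemoglobin is a tetramer of alpha-like and beta-like globin chains, each holding a haem group. Primitive red cells of the early embryo use Hba-x, Hbb-y and Hbb-bh1, whereas definitive red cells, which mature in the fetal liver, use Hba-a1, Hba-a2, Hbb-bs and Hbb-bt. The fetal liver is the main site of red cell formation at these stages, and biliary cells differentiate within this haematopoietic tissue. Red cells and their precursors were among the cells that the depletion was designed to remove. In bulk RNA, fewer cells of a type and less RNA per cell cannot be told apart.

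Levels are given in TPM, a transcript abundance scaled by gene length and library total, and the reads behind them were recovered from the table as described with the processing. Recovered reads came to between 23193537 and 26206374 per library at E16.5 and between 13093937 and 22643868 at E18.5, so the E18.5 libraries were shallower. Sox9 itself stood at 69.5 to 186 TPM at E16.5 and 353 to 466 TPM at E18.5, and the albumin gene Alb at 30024 TPM or more in all 6 libraries.

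The sequences of the adult globins are shown first because they decide how reads can be split between genes. The coding sequence of Hba-a1 and that of Hba-a2, both 429 bases long in the GENCODE vM21 transcripts, differed at 1 base, C381T, counted from 1 at the A of the start codon with the base of Hba-a1 first. Hbb-bs and Hbb-bt, both 444 bases, also differed at 1 coding base, C417T, with the base of Hbb-bs first. The 29 coding bases around each difference are printed 5′ to 3′ on the transcript strand, with the differing base in capitals:
Hba-a1: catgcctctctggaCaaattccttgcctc
Hba-a2: catgcctctctggaTaaattccttgcctc
Hbb-bs: gtggctggagtggcCgctgccctggctca
Hbb-bt: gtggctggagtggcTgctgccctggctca

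Of the stretches of 100 bases in the Hba-a2 transcripts, 20.5% occurred in no other annotated gene, against 36.7% for Hba-a1, 50.3% for Hbb-bs and 45.2% for Hbb-bt. For the embryonic Hba-x, Hbb-y and Hbb-bh1 the share was 100%. Much of the stretch particular to Hba-a1 is a longer start of its transcript model, and the 247 bases before the RefSeq start of the 2 alpha genes were identical once shifted by 3 bases. How reads that match both copies were counted, and which bases the CD-1 mice carry at these positions, is not given in the sources used here. The values of Hba-a1 and Hba-a2, and of Hbb-bs and Hbb-bt, are therefore uncertain as a split, and whether their sums hold all reads of the pair is not known.

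The adult alpha globin genes lie on chromosome 11 of GRCm38, Hba-a1 at chr11:32283511-32284465 and Hba-a2 at chr11:32296489-32297298, both on the plus strand. Hba-a1 stood at 113, 124 and 90.6 TPM in the E16.5 libraries, in the order A, B, C that is kept below (789, 786 and 587 reads), and at 28.3, 245 and 51.6 TPM at E18.5 (157, 1018 and 170 reads). The E18.5 replicate B library was the highest of all 6 and the other E18.5 libraries were the lowest, so the E18.5 values enclosed all those of E16.5. The mean was 109 ± 17.1 TPM at the earlier stage and 108 ± 119 TPM at the later one (SD, n = 3 each). Within E18.5, replicate B was 8.68-fold above A and 4.76-fold above C, a far wider spread than the 1.37-fold between the highest and lowest E16.5 libraries. By level, Hba-a1 was the 391st gene in E18.5 replicate B and the 6673rd in replicate A.

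Hba-a2, whose product is an alpha globin chain as well, stood at 0.175, 6.15 and 0.752 TPM at E16.5 and at 4.82, 26.1 and 0.738 TPM at E18.5. These values rest on 1, 32 and 4 reads and on 22, 89 and 2 reads. Hba-a2 made up 0.127% of the reads of the alpha pair in E16.5 replicate A (95% exact binomial interval 0.00320 to 0.703%) and 12.3% in E18.5 replicate A (7.87 to 18.0%), and it did so at very unequal shares within each stage, from 0.127 to 3.91% at E16.5 and from 1.16 to 12.3% at E18.5. Intervals and limits of this kind cover counting error only. The differences between libraries of 1 stage were thus beyond counting error, and the stages overlapped.

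The adult beta globin genes lie on the minus strand of chromosome 7, Hbb-bs at chr7:103826534-103828096 and Hbb-bt at chr7:103812524-103813996. Hbb-bs stood at 81.7, 101 and 66.1 TPM at E16.5 and at 26.5, 194 and 33.3 TPM at E18.5 (means 82.9 ± 17.4 and 84.6 ± 94.7 TPM). Hbb-bt stood at 13.8, 13.1 and 16.6 TPM at E16.5 and at 5.41, 40.1 and 6.66 TPM at E18.5 (means 14.5 ± 1.84 and 17.4 ± 19.7 TPM). In both genes E18.5 replicate B was again the highest library and E18.5 replicates A and C the lowest. Hbb-bt took 10.7 to 18.7% of the reads of the beta pair in E16.5 libraries and 15.4 to 15.9% in those of E18.5. Within E16.5 its share also differed beyond counting error, between 10.7% in replicate B (95% exact binomial interval 8.43 to 13.2%) and 18.7% in replicate C (15.3 to 22.4%).

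**Figure D1:**
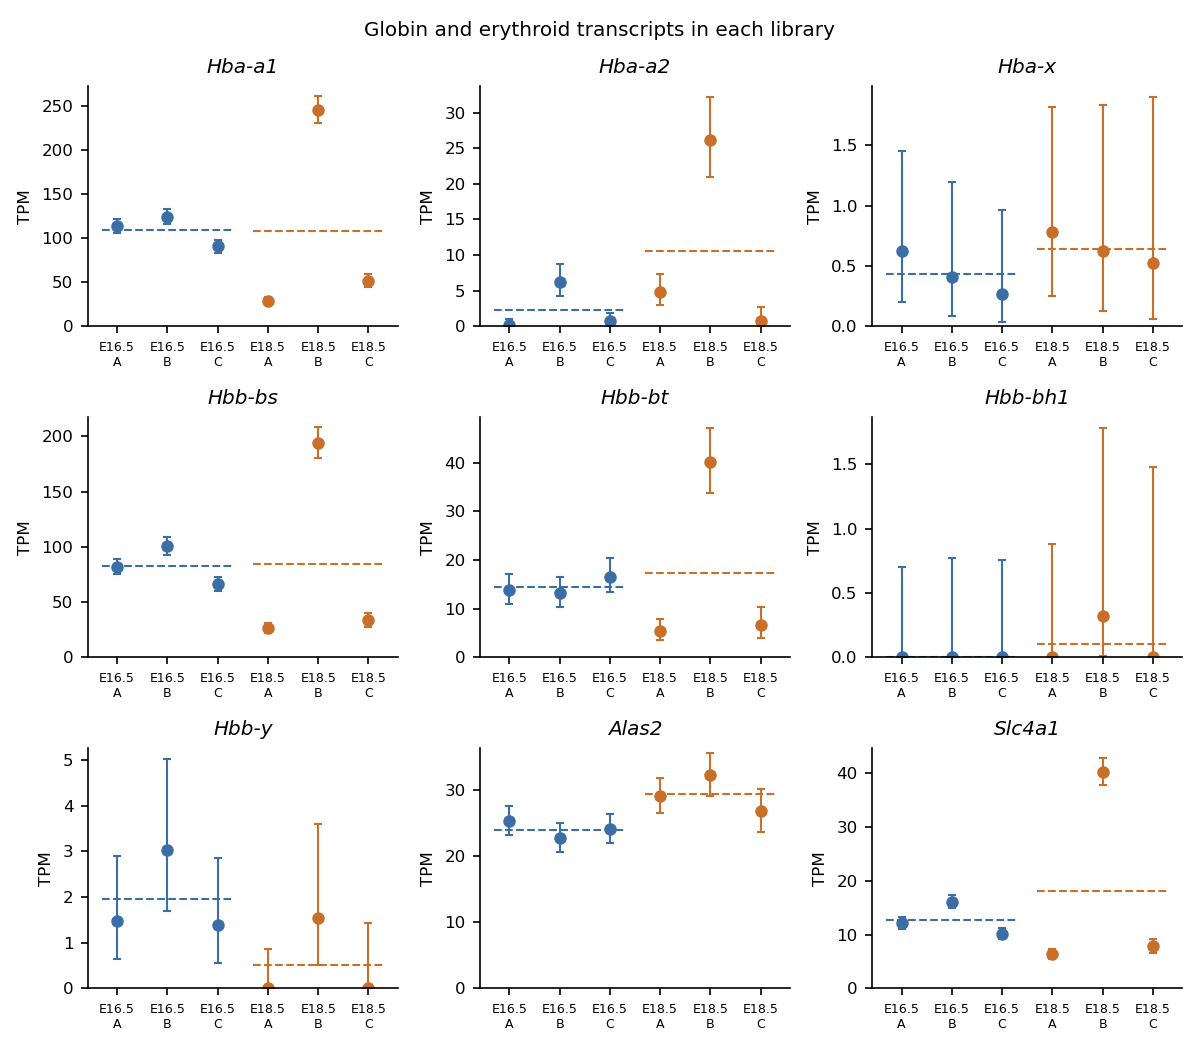
Level of each of the 9 genes in TPM (vertical axis, from 0, separate scale per gene) in the E16.5 libraries (blue) and E18.5 libraries (orange) A, B and C. Points are single libraries, bars are 95% exact binomial intervals of the reads out of the library total, and dashed lines are stage means. Hba-a1, Hbb-bs, Hbb-bt and Slc4a1 peak in E18.5 replicate B (Hba-a1 at 245 TPM) and are lowest in E18.5 replicates A and C, Hba-a2 peaks there too but is lowest in E16.5 replicate A, and Alas2 stays between 22.7 and 32.2 TPM.

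The alpha-like and beta-like sums moved together. The alpha-like sum was 114, 131 and 91.6 TPM at E16.5 and 33.9, 272 and 52.8 TPM at E18.5, and the beta-like sum was 96.9, 117 and 84.1 TPM and 31.9, 236 and 40.0 TPM. Their ratio lay between 1.06 and 1.32 in every library, although the sums themselves spanned several-fold. The 2 chains pair in equal numbers in haemoglobin, and TPM is per length, but any link between pairing and this ratio was not tested. Reads that match both copies of a pair may be missing from the sums. Of stretches of 100 bases, 36.7% in Hba-a1 and 20.5% in Hba-a2 occurred in no other gene, against 50.3% in Hbb-bs and 45.2% in Hbb-bt. The alpha-like and beta-like sums may thus miss unequal shares of their reads, which makes the ratio uncertain. All 7 globins together took 0.00657 to 0.0508% of the library total.

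**Figure D2:**
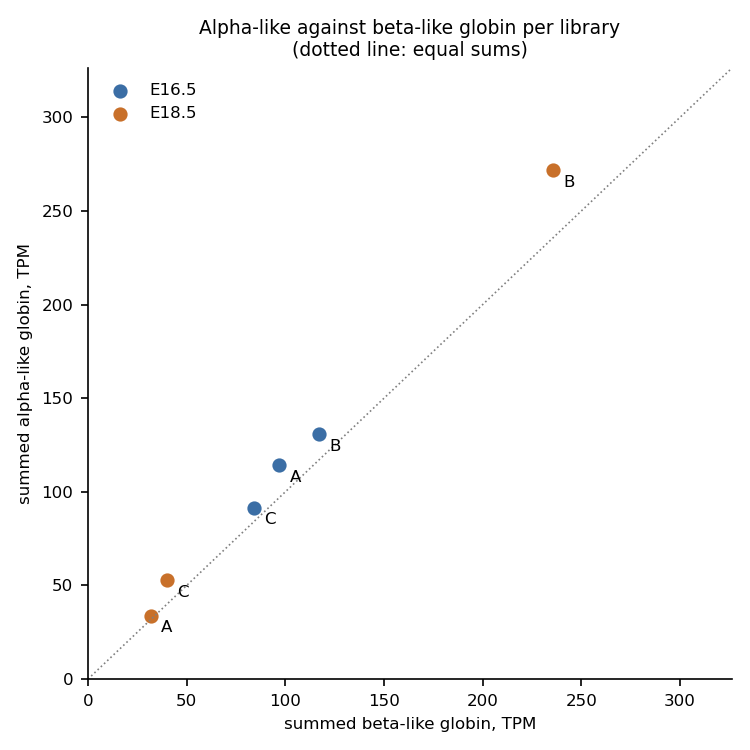
Summed alpha-like globin against summed beta-like globin, both in TPM on linear axes from 0, with 1 point per library (E16.5 blue, E18.5 orange) and a dotted line of equal sums. All 6 libraries lie just above the line, from 33.9 TPM of alpha-like globin in E18.5 replicate A to 272 TPM in E18.5 replicate B.

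The embryonic globins were near or below the limit of detection. Hba-x, the embryonic alpha-like chain (chr11:32276400-32278116), stood at 0.622, 0.410 and 0.267 TPM at E16.5 and at 0.779, 0.626 and 0.525 TPM at E18.5, which is 2 to 5 reads per library. Hbb-bh1, an embryonic beta-like chain (chr7:103841637-103843164), had 0 reads in 5 libraries and 1 read in E18.5 replicate B. A count of 0 allows levels of up to 0.571 to 1.21 TPM (3 reads) in those 5 libraries. Neither gene reached the mean of 1 TPM required for the test between stages.

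Hbb-y, the other embryonic beta-like chain (chr7:103851749-103853216), stood at 1.47, 3.04 and 1.39 TPM at E16.5 (8, 15 and 7 reads) and at 0, 1.55 and 0 TPM at E18.5 (0, 5 and 0 reads). Every E16.5 library held Hbb-y reads and E18.5 replicates A and C held none, but E18.5 replicate B lay within the E16.5 range. As a share of the beta-like sum in TPM, the embryonic chains made up 1.52, 2.60 and 1.65% at E16.5 and 0, 0.791 and 0% at E18.5, a difference of means of -1.66 percentage points (1.92 ± 0.588% and 0.264 ± 0.457%, SD, n = 3 each). By reads, the share in E18.5 replicate B was 6 of 911 (0.659%, 95% exact interval 0.242 to 1.43%), the lowest E16.5 share was 8 of 629 (1.27%, 0.551 to 2.49%), and the intervals overlapped. The absence of reads in E18.5 replicates A and C, 0 of 165 and 0 of 123, allows shares of up to 1.82 and 2.44%, so a lower share at E18.5 was not detectable in those libraries at this depth.

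Alas2 encodes the erythroid form of the first and rate-limiting enzyme of haem synthesis (chrX:150547375-150570638, plus strand). It stood at 25.2, 22.7 and 24.1 TPM at E16.5 and at 29.0, 32.2 and 26.7 TPM at E18.5. All E18.5 values lay above all E16.5 values, but by little, with means of 24.0 ± 1.28 and 29.3 ± 2.76 TPM. Over all genes tested, 45.0% were likewise higher at E18.5 without overlap and 8.30% lower without overlap. An exact two-sided permutation test of the Alas2 means gave p = 0.1, the smallest value that 3 against 3 libraries allow.

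Alas2 did not follow the globins, and its level set against the globin sum went from 6.35% in E18.5 replicate B to 44.1% in E18.5 replicate A. Of its exon bases, 15.5% are shared with genes on the opposite strand, chiefly Apex2, which encodes a DNA repair nuclease. Apex2 stood at 21.6 to 22.8 TPM at E16.5 and 22.3 to 24.9 TPM at E18.5. The library kit marks strand, but the sources used here do not state whether counting used it, so the part of those reads in the Alas2 value was not tested.

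Slc4a1 encodes band 3, the chloride and bicarbonate exchanger of the red cell membrane (chr11:102348824-102366203, minus strand). It stood at 12.1, 16.1 and 10.1 TPM at E16.5 and at 6.31, 40.2 and 7.80 TPM at E18.5 (means 12.8 ± 3.06 and 18.1 ± 19.2 TPM). The order of the 6 libraries was the same as for Hba-a1 and Hbb-bs, with E18.5 replicate B on top and replicates A and C of that stage at the bottom. Set against the globin sum, Slc4a1 was 5.73 to 6.50% in E16.5 libraries and 7.92 to 9.59% in those of E18.5.

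The promoters of Hba-a1, Hbb-bs and Alas2 are shown as sequence only. Any link between them and the levels of these genes across libraries was not tested. Each is the run of 250 bases before the RefSeq start of the gene (GRCm38.p6), 5′ to 3′ on the gene's strand, at chr11:32283422-32283671 (plus) for Hba-a1, chr7:103827929-103828178 (minus) for Hbb-bs and chrX:150547167-150547416 (plus) for Alas2. Capitals mark the letters TATAA of the core promoter, the CCAAT box, CACCC as in KLF1 sites, and GATAA as in GATA1 sites, searched on both strands, with overlapping matches run together:
Hba-a1: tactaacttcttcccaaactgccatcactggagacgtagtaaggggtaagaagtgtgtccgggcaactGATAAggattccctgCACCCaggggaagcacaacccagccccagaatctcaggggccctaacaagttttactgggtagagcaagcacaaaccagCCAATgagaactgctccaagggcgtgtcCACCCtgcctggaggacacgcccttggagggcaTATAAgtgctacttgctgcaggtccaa
Hbb-bs: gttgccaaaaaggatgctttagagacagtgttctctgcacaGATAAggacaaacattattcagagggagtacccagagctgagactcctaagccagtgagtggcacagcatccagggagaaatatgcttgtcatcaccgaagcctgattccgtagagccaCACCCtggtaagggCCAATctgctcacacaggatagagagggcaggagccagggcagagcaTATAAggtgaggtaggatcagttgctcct
Alas2: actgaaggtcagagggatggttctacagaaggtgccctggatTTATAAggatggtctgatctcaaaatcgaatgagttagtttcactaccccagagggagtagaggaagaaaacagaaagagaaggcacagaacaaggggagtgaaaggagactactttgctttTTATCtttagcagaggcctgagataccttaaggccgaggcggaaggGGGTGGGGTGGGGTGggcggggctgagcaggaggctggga

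TATAA began 27 bases before the start of Hba-a1 and 29 before that of Hbb-bs, while the nearest in Alas2 began 207 bases before. CCAAT lay 88 bases before Hba-a1 and 76 before Hbb-bs, and Alas2 had none in this window. CACCC matches and also GATAA matches were present in all 3, with 3 CACCC matches in Alas2 on the reverse strand. Over the 32851 promoters of the RefSeq table, 22.8% held TATAA, 33.8% CCAAT, 52.0% CACCC and 22.6% GATAA in the same window. Promoters were matched for 7 of the 9 genes, and these matches describe letters only.

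The stages were compared with limma on log2(TPM + 1) over 22452 genes whose mean reached 1 TPM, and a gene was called at a Benjamini-Hochberg adjusted p under 0.05. Of all genes tested, 31.2% were called, 26.0% as higher and 5.22% as lower at E18.5, and all genes together had a median log2 fold change of 0.42. With median-of-ratios scaling that median became 0.01 and the calls changed from 5828 higher and 1172 lower to 1447 higher and 2348 lower. Directions of small changes therefore depend on the scaling.

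Of the 9 genes, 7 could be tested and 0 were called. None of the 7 had an unadjusted p under 0.05 in this fit, and limma voom on the recovered reads also called 0, with 1 at an unadjusted p under 0.05. Their median log2 fold change was -0.29, beside 0.42 over all genes. That of Hba-a1 was -0.60 ± 0.70 (SE; limma, adjusted p = 0.525) and that of Hbb-bs -0.54 ± 0.69 (adjusted p = 0.559). For Hbb-bt it was -0.29 ± 0.66 (adjusted p = 0.749) and for Hba-a2 1.41 ± 1.07 (adjusted p = 0.327). With errors of this size, the fit cannot tell a several-fold difference between stages from none in these 4 genes.

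Hbb-y had a log2 fold change of -1.08 ± 0.47 (limma, adjusted p = 0.115), which became -2.93 with a pseudocount of 0.1 in place of 1, since 2 of its values are 0. Slc4a1 had 0.03 ± 0.62 (adjusted p = 0.971), and its sign changed with the scaling. Alas2 had the smallest error, with 0.28 ± 0.13 (adjusted p = 0.129), below the median of all genes, and its value became -0.17 with median-of-ratios scaling. When near-identical copies were summed, the log2 fold change of the alpha pair was -0.50 (adjusted p = 0.598) and that of the beta pair -0.52 (adjusted p = 0.575), so 0 pairs were called.

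These results depended on single libraries, each of which was left out in turn. Without E18.5 replicate B, Hba-a1 was lower at E18.5 by a log2 fold change of -1.48 ± 0.27 (limma, adjusted p = 0.0308), Hbb-bs by -1.43 ± 0.21 (adjusted p = 0.0208) and Hbb-bt by -1.14 ± 0.20 (adjusted p = 0.0295). In that fit 3.68% of all genes tested were called lower. All 3 genes were then at least 1.76-fold higher in the lowest E16.5 library than in the higher of E18.5 replicates A and C. Slc4a1 had -0.76 ± 0.25 (adjusted p = 0.0839) and Hbb-y -1.53 ± 0.39 (adjusted p = 0.0532), both short of the threshold, and Alas2 had 0.21 ± 0.14 (adjusted p = 0.295). Without E18.5 replicate A, by contrast, Hba-a1 had a value of 0.056 and Hbb-bt one of 0.20, with 0 genes of the 9 called.

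**Figure D3:**
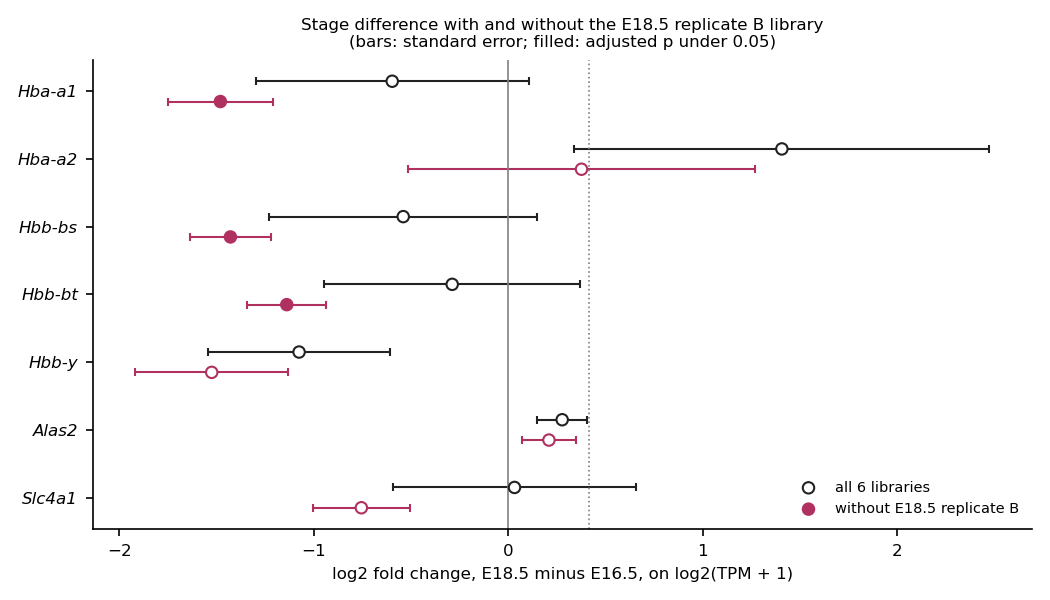
Log2 fold change between stages (E18.5 minus E16.5, on log2(TPM + 1)) of the 7 genes tested, with all 6 libraries (black) and without E18.5 replicate B (red). Bars are standard errors, filled points have an adjusted p under 0.05, the solid line is 0 and the dotted line is the median of all genes tested (0.42). Hba-a1, Hbb-bs and Hbb-bt are called lower at E18.5 in the second of these fits and not in the first, and there they lie between -1.48 and -1.14.

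E18.5 replicate B was the highest of the 6 libraries for 6 of the 7 genes tested, but this was also so for 45.2% of all genes tested. By Pearson correlation of log2(TPM + 1) over the 6 libraries, Hba-a1 was closer to Hbb-bs (r = 0.99) than any of the 11903 genes outside the set of 9 that averaged 10 TPM or more. The closest of those 11903 were Psmd14 (0.97), Mrpl18 (0.97), Hist1h2bk (0.96), Chmp6 (0.96) and Vdac3-ps1 (0.95). Psmd14 encodes a proteasome subunit, Mrpl18 a mitochondrial ribosomal protein, Hist1h2bk a histone and Chmp6 a protein of membrane sorting, and none of the 5 is in the erythroid lists used here. Their ranges were narrow, as Psmd14 went from 46.1 to 70.1 TPM where Hbb-bs went from 26.5 to 194 TPM. Among the other members, Slc4a1 (r = 0.95) and Hbb-bt (0.95) stood at about the level of Vdac3-ps1, and Alas2 was far from Hbb-bs (0.10). The 6 points share library depth and stage, and the values are a description. Likeness to Hbb-bh1 was not computed because it has 1 read in all.

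Most other globin genes and pseudogenes were scarcely detected. Of 7 further ones listed, 6 were found, and Hbb-bh2 and Hbb-bh3 were at 0 in every library. Hbq1a and Hbq1b, the theta globins, were above 0 in E18.5 replicate B alone, at 0.324 and 0.270 TPM. The pseudogene Hba-ps4 stood at 4.59 to 8.97 TPM at E16.5 and 3.92 to 19.8 TPM at E18.5, was the only one of them tested, and did not pass (limma, log2 fold change 0.09, adjusted p = 0.910).

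Few genes of haem synthesis and iron uptake passed the test. All 14 were tested, 0 were called higher and 1 lower, beside 26.0% higher and 5.22% lower among all genes. The median log2 fold change of the 14 was -0.16. Tfrc, the transferrin receptor that brings iron into erythroid precursors, stood at 103, 103 and 70.5 TPM and at 68.3, 115 and 102 TPM, and did not pass the test (adjusted p = 0.925). With median-of-ratios scaling 8 of the 14 genes were called, all lower, beside 2348 called lower among all 22452 genes tested.

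Most erythroid transcription factors fell between the stages. Of 13 tested, 7 fell, 2 rose and 4 did not pass, beside 5.22% lower and 26.0% higher among all genes. The median log2 fold change of the 13 was -0.80. Gata1, the master regulator of red cell and megakaryocyte genes, fell from 66.0, 36.6 and 105 TPM to 4.20, 12.0 and 4.55 TPM (log2 fold change -3.16 ± 0.47, limma adjusted p = 0.0101). Tal1 (-2.62 ± 0.43, adjusted p = 0.0113) and Gfi1b (-2.61 ± 0.45, adjusted p = 0.0127), which serve in the same 2 lineages, fell as well. In all 3 the stages were far apart, and E16.5 replicate C was the highest library. For Hba-a1, Hbb-bs, Slc4a1 and Hbb-y that library was the lowest of its stage. For Hbb-bt it was the highest of its stage, and for Hba-a2 and Alas2 it lay between the others.

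Klf1, the activator of adult beta globin and a factor of red cells rather than megakaryocytes, was at 6.25, 10.7 and 7.21 TPM at E16.5 and 8.03, 7.42 and 8.53 TPM at E18.5, a log2 fold change of 0.02 ± 0.22 (limma, adjusted p = 0.956). Bcl11a, a repressor of embryonic globins, stood at 5.61, 5.83 and 2.46 TPM at E16.5 and at 6.20, 9.43 and 6.47 TPM at E18.5. The Bcl11a values did not overlap between stages but did not pass the test (log2 fold change 0.62 ± 0.32, adjusted p = 0.173). Sox6, which acts with BCL11A on embryonic globin genes, rose from 11.8, 14.2 and 8.94 TPM to 32.0, 34.6 and 27.2 TPM (1.36 ± 0.19, adjusted p = 0.00939). Ldb1, a bridge between GATA1 complexes and enhancers that many cell types express, rose as well (0.99 ± 0.20, adjusted p = 0.0169), but was not called with median-of-ratios scaling (adjusted p = 0.0516).

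Markers of megakaryocytes, the platelet precursors that share GATA1, TAL1 and GFI1B with red cells, moved with these factors. All 12 megakaryocyte genes fell, beside 5.22% called lower among all genes, and the median of their log2 fold changes was -4.16. Their summed level was 6041, 3477 and 10029 TPM at E16.5 and 100.4, 803 and 239.8 TPM at E18.5. E16.5 replicate C was highest for all 12 of them and for 8 of the 13 transcription factors, and 0 of the 7 globin and erythroid genes tested had their highest level there. The share of all genes with their highest level in E16.5 replicate C is not given here. The part of megakaryocyte RNA in the fall of the shared factors was not tested. Within E18.5, the megakaryocyte sum and the globin sum were both highest in replicate B and lowest in replicate A, while at E16.5 the megakaryocyte sum was highest in replicate C, where the globin sum was lowest.

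**Figure D4:**
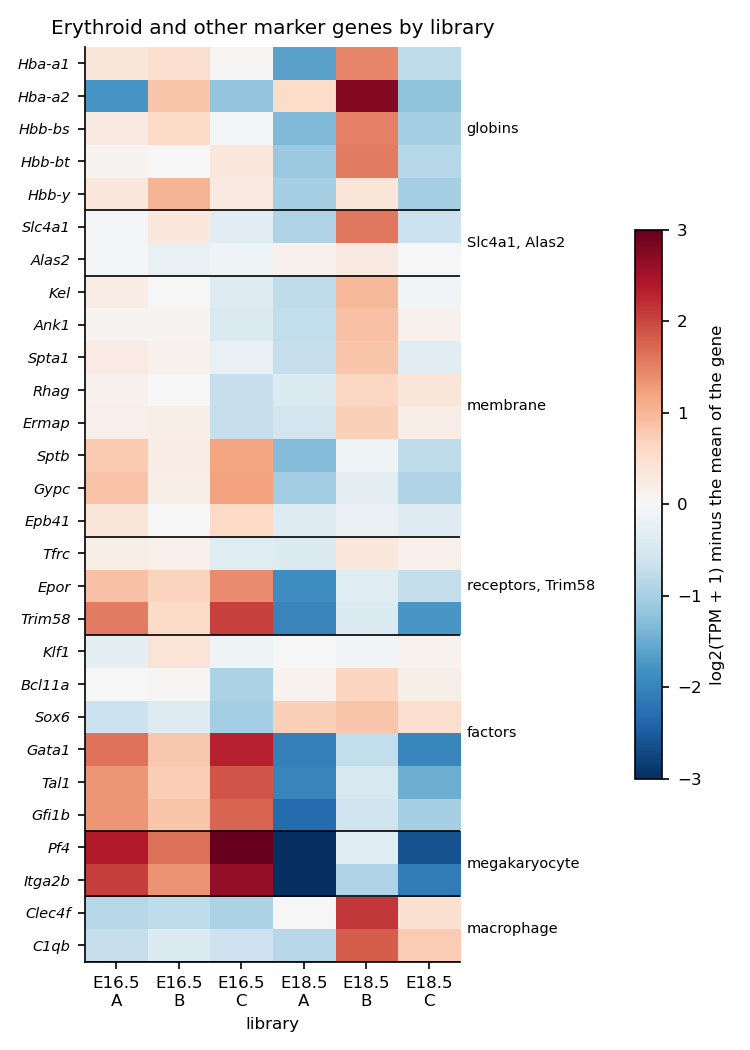
Log2(TPM + 1) of single genes minus the mean of each gene over the 6 libraries (colour, red above and blue below the mean, with the scale ending at 3 and -3), with libraries A, B and C of each stage in columns and genes in rows grouped by role. Adult globins, Slc4a1 and several membrane genes are highest in E18.5 replicate B, whereas Gata1, Tal1 and Gfi1b share the order of the megakaryocyte genes Pf4 and Itga2b, with E16.5 replicate C highest.

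Genes of the red cell membrane and its skeleton were divided. Of 16 listed genes 15 were tested, Icam4 being at 0 in every library, and 4 fell, 1 rose and 10 did not pass, beside 5.22% lower and 26.0% higher among all genes. Their median log2 fold change was -0.08. The list had 0 calls without E18.5 replicate A, 1 without E16.5 replicate C and 1 without E18.5 replicate C. In these fits 6.57, 18.0 and 25.6% of all genes tested were called, beside 31.2% in the main fit. The calls of the list thus rest on single libraries, and the number over all genes went down as well. Gypc, which encodes glycophorin C (-1.49 ± 0.31, limma adjusted p = 0.0170), Sptb, which encodes the erythroid spectrin beta chain (-1.46 ± 0.35, adjusted p = 0.0243), and Dmtn, which encodes the actin bundling protein dematin (-0.82 ± 0.25, adjusted p = 0.0446), fell. Tmod1, which encodes the actin capping protein tropomodulin 1, rose from 1.48, 1.07 and 0.858 TPM to 2.96, 4.12 and 4.06 TPM (1.14 ± 0.26, adjusted p = 0.0217), a call lost with median-of-ratios scaling (adjusted p = 0.0511). E18.5 replicate B was the highest library for 10 of the 15 membrane genes tested, against 45.2% of all genes.

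Among red cell enzymes, chaperones and receptors, 15 of 16 listed genes were found and tested, of which 4 fell, 3 rose and 8 did not pass, beside 5.22% lower and 26.0% higher among all genes. Without E18.5 replicate A, 1 rose and 1 fell, beside 1038 called higher and 434 called lower among all 22410 genes tested. Trim58, a ubiquitin ligase of late erythroid cells, fell from 30.1, 14.7 and 42.7 TPM to 1.67, 6.96 and 2.13 TPM (-2.77 ± 0.51, limma adjusted p = 0.0139). Epor, the erythropoietin receptor that red cell precursors need to survive, fell from 21.2, 18.2 and 31.1 TPM to 2.35, 8.36 and 6.31 TPM (-1.97 ± 0.40, adjusted p = 0.0164). Hemgn, a nuclear protein of blood progenitors, fell as well (-1.07 ± 0.31, adjusted p = 0.0389). All 3 were highest in E16.5 replicate C, as the megakaryocyte genes were.

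The carbonic anhydrase genes Car1 (1.06 ± 0.32, limma adjusted p = 0.0445) and Car2 (0.77 ± 0.14, adjusted p = 0.0138) and the mitophagy receptor gene Bnip3l (0.45 ± 0.13, adjusted p = 0.0376) rose. None of these 3 calls held with median-of-ratios scaling, under which Bnip3l had a value of -0.02. Car2 and Bnip3l are active in many cell types.

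Over the 4 erythroid lists together, 57 of 59 genes were tested, of which 6 rose and 16 fell, beside 26.0% called higher and 5.22% called lower among all genes. With median-of-ratios scaling 17 of these 22 calls were kept, Sox6 being the only rise among them. The counts under that scaling were 1 higher and 25 lower, beside 1447 higher and 2348 lower among all 22452 genes tested. The number called went down to 8 without E18.5 replicate A, to 12 without E16.5 replicate C and to 14 without E16.5 replicate A. In those fits 6.57, 18.0 and 19.4% of all genes tested were called, beside 31.2% in the main fit. The size of these counts thus rests on single libraries, as does the number called over all genes.

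Markers of other cell types stood as follows beside the globin values. Of the 10 macrophage genes, 9 were tested, 2 rose and 1 fell, and 6 were highest in E18.5 replicate B, beside 26.0% higher, 5.22% lower and 45.2% highest in that library among all genes. With median-of-ratios scaling and with voom 0 rose and 1 fell. Among all genes, 1447 of 22452 rose and 2348 fell with that scaling, and 4190 of 20425 rose and 1362 fell with voom. Csf1r, the receptor of the macrophage growth factor, rose (0.93 ± 0.14, limma adjusted p = 0.0104) and was highest in E18.5 replicate C. Vcam1, an adhesion molecule that other liver cells also carry, fell (-1.27 ± 0.17, adjusted p = 0.00890). Clec4f, a marker of liver macrophages, which engulf the nuclei that red cell precursors expel, was at 0.913 to 1.19 TPM at E16.5 and at 2.72, 15.3 and 4.09 TPM at E18.5, a call (adjusted p = 0.0472) that was lost with median-of-ratios scaling (0.103) and with voom (0.0526). The summed level of the list was 127 to 143 TPM in E16.5 libraries and 111 to 130 TPM in those of E18.5, of which Vcam1 alone made up 88.5 to 102 TPM and 29.9 to 44.2 TPM. The other 9 genes, summed after these values were seen, came to 38.7, 35.2 and 41.0 TPM at the earlier stage and to 66.6, 95.5 and 86.0 TPM at the later one. No macrophage gene was at 0 in all libraries. The 12 hepatoblast genes summed to 180981 to 230158 TPM at E16.5 and were lowest in E18.5 replicate B, at 42062 TPM, and the 11 cholangiocyte genes were highest there, at 14801 TPM. The part of any of these cells in the globin values was not tested.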

How the data were processed

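Total RNA of sorted GFP-positive fetal liver cells was sequenced in 6 libraries. The authors checked and trimmed the reads, aligned them with HISAT2 2.1.0 to GRCm38, counted them with HTSeq 0.5.4p3 on GENCODE vM15 and deposited TPM per gene. How multiply aligned reads and strand were treated is not given in the sources used here. Symbols, exon lengths and positions came from GENCODE vM21 (52403 of 52550 identifiers matched), and promoters from RefSeq. To recover reads, each TPM was multiplied by exon length and divided by the value of 1 read, which gave numbers whole within 0.01 for 100% of 180057 values above 0. Intervals are 95% exact, and the limit of a count of 0 is 3 reads.

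The comparison of stages used limma 3.58.1 under R 4.3.3 (eBayes with a trend, log2(TPM + 1), mean of at least 1 TPM, Benjamini-Hochberg). Permutation tests used Python 3.11.15 with scipy 1.17.1. The steps were tested on simulated data. Replicates are separate pools of livers. The genes and lists were chosen with earlier results of these data known. All 9 members are named, and from each list up to 3 called genes per direction by size of change, plus Gata1, Klf1, Epor, Tfrc and Bcl11a, and the 5 genes most like Hbb-bs. Further erythroid, macrophage or membrane genes shown in the plot of gene patterns, and Apex2, Clec4f, Csf1r, Vcam1, Cd163, Alb and Sox9, were chosen after their values were seen. Results for some named genes are not reported here. Alternatives were another pseudocount, other filters, 2 rescalings, no trend, a replicate block, voom on the reads, summed copies and each library left out.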

Additional observations from a re-analysis of the deposited data

How the results depend on the processing

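With the replicate letters as a replicate block, 7314 genes were called in place of 7000, 0 of the 9 genes were called and Hba-a2 had an adjusted p of 0.0986 (limma). The correlations of same-letter deviations were -0.042 for A, 0.081 for B and 0.14 for C, and those of different letters ran from -0.15 to 0.084. With 3 libraries per stage these values cannot decide whether the letters pair libraries, and the main fit used no pairing. The number of genes called was 4282 with no filter on low values and 3795 with median-of-ratios scaling. Leaving out 1 library gave 1472 to 5686 called genes, 0 to 3 of the 9 genes called and 8 to 18 genes of the 4 erythroid lists. Over the same fits the log2 fold change ran from -1.48 to 0.056 for Hba-a1, -1.43 to -0.015 for Hbb-bs, -1.14 to 0.20 for Hbb-bt and -0.76 to 0.49 for Slc4a1, with the upper end reached without E18.5 replicate A and the lower without E18.5 replicate B in all 4 genes. Hbb-bt also turned positive without E18.5 replicate C (0.07) and Slc4a1 negative without E16.5 replicate C (-0.11). Slc4a1 was -0.40 with median-of-ratios scaling and -0.16 with voom, and Alas2 was -0.17 with median-of-ratios scaling. The cause was not tested. Hba-a2 and Hbb-y kept their direction under every alternative that tested them, as did the difference in the embryonic share of beta-like globin, at -1.92 to -1.32 percentage points without 1 library and -1.39 by reads. All these take the counts of 0 in E18.5 replicates A and C as exact, although they allow shares of up to 1.82 and 2.44%. Depth limits Hba-x, Hbb-bh1, Hbb-y and Hba-a2, which rest on few reads per library.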

Other observations

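Of the 8 genes that clear or store haemoglobin, haem and iron, 7 were tested, 1 rose and 2 fell, beside 26.0% higher and 5.22% lower among all genes. Without E18.5 replicate A, 1 rose and 0 fell, beside 1038 called higher and 434 called lower among all 22410 genes tested. Slc40a1, which encodes the iron exporter ferroportin, rose from 73.0, 77.6 and 65.6 TPM to 167, 154 and 132 TPM (log2 fold change 1.05 ± 0.13, limma adjusted p = 0.00822) and was still called with median-of-ratios scaling (0.59, adjusted p = 0.0201). Hpx, which encodes the plasma haem scavenger haemopexin made by hepatocytes, fell (-1.55 ± 0.43, adjusted p = 0.0339). Its lowest level, 229 TPM, was in E18.5 replicate B, the library with the most globin. The summed level of the hepatoblast genes was lowest in the same library, at 42062 TPM. Ftl1, a ferritin light chain gene, fell as well (-0.59 ± 0.13, adjusted p = 0.0198). Cd163, the haemoglobin scavenger receptor of macrophages, stayed under 1 TPM in every library and was at its highest, 0.573 TPM, in E18.5 replicate B.

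Of the 8 endothelial genes tested, 1 rose and 0 fell, beside 26.0% higher and 5.22% lower among all genes. The rise was that of the sialomucin gene Emcn (log2 fold change 1.10 ± 0.34, limma adjusted p = 0.0480), and that call was lost with median-of-ratios scaling (adjusted p = 0.128). It was also lost whichever single library was left out. The summed endothelial level was 113 to 183 TPM at E16.5 and 103, 198 and 202 TPM at E18.5, so it did not separate E18.5 replicate B from replicate C as the globins did. Of the 12 hepatoblast genes 7 fell, beside 5.22% of all genes. Only 1 did so without E16.5 replicate A, without E16.5 replicate C or without E18.5 replicate A, and 2 without E16.5 replicate B. In the same order, these fits called lower 648 of 22528, 682 of 22683, 434 of 22410 and 961 of 22653 genes tested. Of the 11 cholangiocyte genes 9 rose, beside 26.0% of all genes. With median-of-ratios scaling 5 rose, beside 1447 of all 22452 genes tested. Without E18.5 replicate B 4 rose, beside 2100 of 22200, and without E18.5 replicate A 1 rose, beside 1038 of 22410.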
